A study of Mus musculus with 4 samples.

Results

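The microRNA and small nucleolar RNA (snoRNA) gene entries of an RNA-seq data set are described here. Its cells were fluorescent cells sorted from the mouse retina as Müller glia, and they also held transcripts of other retinal cells. The files listed 24322 gene symbols, of which 1266 were numbered *Mir*, *Mirlet*, *Snora* or *Snord* symbols. Of these, 66 had a mean FPKM of at least 1 over the 4 libraries and were taken as members, so the members were chosen by their mean level in these libraries. FPKM are fragments per kilobase of transcript, scaled to the number of mapped reads. The members were 34 microRNA entries, 23 H/ACA snoRNA entries (*Snora*), 6 C/D snoRNA entries (*Snord*) and 3 long host-gene entries whose symbols match the rule (*Mir22hg*, *Mir124a-1hg* and *Mir99ahg*). The other 63 were at most 221 bases long and are called short entries below.

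Each library was made from the mTFP-positive cells of the retina of 1 mouse, isolated by FACS. The 2 control mice, numbered 7984 and 3911, were *Raxflox/WT*, with 1 floxed and 1 intact allele of *Rax*, a homeobox gene of retinal development. The 2 *Rax* iCKO mice, numbered 7983 and 3914, were *Raxflox/flox*. All 4 mice carried *Rlbp1-CreERT2*, in which a fragment of the promoter of the Müller glial gene *Rlbp1* drives tamoxifen-dependent Cre, and *R26-CAG-LoxP-mTFP1*, from which Cre switches on the teal fluorescent protein mTFP1. All were given tamoxifen at P4, their retinas were harvested at P14, and the labels name the strain 129S6. A control therefore also carried Cre, tamoxifen and 1 floxed allele, and recombination in the sorted cells was limited to those in which the *Rlbp1* fragment was active.

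MicroRNAs are cut from hairpins in longer transcripts by *Drosha* with *Dgcr8* in the nucleus and by *Dicer1* in the cytoplasm, and the mature strand guides an Argonaute protein to messenger RNAs through its seed. SnoRNAs are released mostly from introns of host genes. C/D snoRNAs guide methylation of ribosomal RNA with fibrillarin (*Fbl*), and H/ACA snoRNAs guide the change of uridine to pseudouridine with dyskerin (*Dkc1*). In the retina, let-7, miR-124, miR-9 and the miR-183 cluster are known microRNAs of glia, neurons and photoreceptors. Mature microRNAs and snoRNAs lack poly(A) tails, and the cDNA kit named in the labels primes on such tails, so a read in one of these entries can also come from a longer transcript that runs through it.

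Of the 34 microRNA members, 30 had mature sequences in RefSeq (GRCm38.p6), which held 37 mature sequences with 37 distinct seeds, so no seed was shared between members. *Mir8097*, *Mir8108*, *Mir124a-2* and *Mir1957b* had no entry. The sequences below belong to the entries that carried the largest differences between the genotypes, the highest FPKM, or a microRNA known in retina or brain (let-7a and miR-7a, chosen after the values were seen). Capitals mark the seed, bases 2 to 8.
miR-568 (chr16:43640665-43640684, plus strand): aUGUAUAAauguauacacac
miR-6538 (chr12:26414970-26414988, minus strand): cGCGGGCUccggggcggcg
miR-703 (chr5:98475616-98475636, minus strand): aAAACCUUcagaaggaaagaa
miR-6236 (chr9:110281353-110281371, plus strand): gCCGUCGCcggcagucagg
miR-6240 (chr5:114851973-114851998, plus strand): cCAAAGCAucgcgaaggcccacggcg
miR-6340 (chr2:173701098-173701120, minus strand): gUCAGCAGcagcuucgcuuuggc
miR-5098 (chr5:77272767-77272787, plus strand): gUUACAUGgugaagcccaguu
let-7a-5p (chr13:48538239-48538260, minus strand): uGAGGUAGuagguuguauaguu
miR-7a-5p (chr13:58392841-58392863, minus strand): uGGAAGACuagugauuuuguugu

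What the files measured is not the mature strand but the whole annotated hairpin. The hairpins of the 2 entries that passed the test between genotypes are given with the mature strand in capitals. *Mir568* lies at chr16:43640655-43640737 on the plus strand, in an exon of *Zbtb20*, and *Mir6538* lies at chr12:26414901-26415010 on the minus strand, in an intron of *Rnf144a*.
Mir568 hairpin (chr16:43640655-43640737, plus strand): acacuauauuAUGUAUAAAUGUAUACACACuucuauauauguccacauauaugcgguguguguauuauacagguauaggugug
Mir6538 hairpin (chr12:26414901-26415010, minus strand): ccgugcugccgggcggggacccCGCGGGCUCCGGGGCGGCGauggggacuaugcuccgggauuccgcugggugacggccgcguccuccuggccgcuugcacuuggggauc

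For the snoRNAs, the sequences of GENCODE M21 (GRCm38) show the boxes by which the families are told apart. In the H/ACA snoRNAs the capitals mark ANANNA nearest the middle, where box H lies, and ACA in the last 10 bases. In the C/D snoRNA they mark TGATGA in the first 20 bases (box C) and CTGA in the last 12 bases (box D). Only the strand of the entry was searched. *Snora31* and *Snora70* were the H/ACA entries above 0 in all 4 libraries with an annotated host, *Snora81* and *Snora78* had genotypes that did not overlap, and the C/D snoRNA *Snord4a* lies in an intron of the ribosomal protein gene *Rpl23a*.
Snora31 (chr14:75847905-75848034, plus strand): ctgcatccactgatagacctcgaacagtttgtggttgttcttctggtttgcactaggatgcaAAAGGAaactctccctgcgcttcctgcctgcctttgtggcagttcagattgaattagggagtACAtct
Snora70 (chrX:74272484-74272620, plus strand): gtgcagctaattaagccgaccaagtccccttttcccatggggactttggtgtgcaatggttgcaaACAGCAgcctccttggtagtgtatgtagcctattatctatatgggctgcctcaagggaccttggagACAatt
Snora81 (chr16:23110756-23110933, plus strand): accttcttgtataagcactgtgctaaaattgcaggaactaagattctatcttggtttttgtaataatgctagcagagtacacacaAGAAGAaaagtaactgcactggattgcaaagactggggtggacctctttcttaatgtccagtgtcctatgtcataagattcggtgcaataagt
Snora78 (chr17:24719676-24719803, minus strand): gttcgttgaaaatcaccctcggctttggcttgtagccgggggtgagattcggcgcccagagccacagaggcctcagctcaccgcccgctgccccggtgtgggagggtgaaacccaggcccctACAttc
Snord4a (chr11:78181686-78181756, minus strand): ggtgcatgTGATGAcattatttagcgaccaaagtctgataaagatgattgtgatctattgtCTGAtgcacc

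The ACA was found in 21 of 22 *Snora* members with a sequence, against 94.9% of the 39 *Snora* entries searched in GENCODE, and *Snora81* was the member without it. ANANNA near the middle was found in 20 of the 22 members and in 94.9% of all 39, and *Snora78* was a member without it. TGATGA was found in 5 of 6 *Snord* members, against 71.1% of the 97 *Snord* entries, and CTGA in all 6 members, against 86.6%. Among the entries of the files with a sequence, ACA was found in 94.3%, ANANNA in 94.3%, TGATGA in 63.4% and CTGA in 81.7%.

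The FPKM of these entries are large because the entries are short, and few reads lay behind them. With Cufflinks, a read in a short entry is divided by an effective length that is much smaller than the annotated length. The depths estimated from the low values of single-exon genes were 12720000 mapped reads for control 7984, 9270000 for control 3911, 9450000 for *Rax* iCKO 7983 and 9320000 for *Rax* iCKO 3914. At these depths 1 read in an entry of 59 bases was worth 223 FPKM in control 7984 and between 300 and 321 FPKM in the other libraries. In an entry of 116 bases, the median length of the short members, 1 read was worth between 17.7 and 24.5 FPKM, and in the longest short member, of 221 bases, between 1.9 and 2.62 FPKM.

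**Figure D1:**
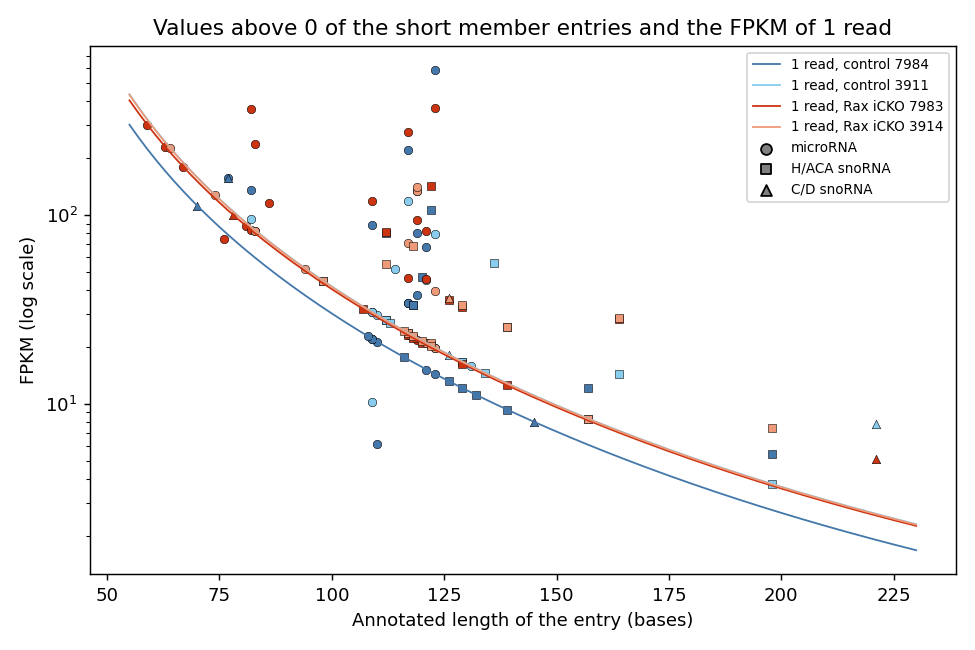
FPKM (log scale) of each of the 118 values above 0 in the 63 short members against the annotated length in bases, with circles for microRNAs, squares for H/ACA and triangles for C/D snoRNAs, coloured by library. The lines give the FPKM of 1 read in each library, and 60 values lie at 1 read.

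On this scale, 103 of the 118 values above 0 (87.3%) were whole numbers of reads. The tolerance was 0.05 reads, and was widened in proportion to the count for the larger values. Of these 103 values, 60 (58.3%) were 1 read and 95 (92.2%) were 1 to 4 reads. The 15 values that were not whole came from 8 entries, *Mir1954*, *Mir5098*, *Mir5136*, *Mir546*, *Mir719*, *Mir8097*, *Mir8108* and *Snora28*. The read numbers are estimates that rest on a shortest fragment of 28 or 29 bases, set after the data were seen so that most values were whole. With fragments from 1 base, only 5 values (4.24%) were whole and the median was 1.69 reads per value, against 0.999 with the shortest fragment.

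All 63 short entries together held about 305 reads in all, between 49.3 and 115 reads in each library. Summed over the 4 libraries, 27 entries rested on at most 1 read, 35 on at most 2 reads and 7 on at least 10 reads. *Mir6236* and *Mir6240* alone accounted for 98.8 reads. The exact Poisson interval (95%) around 1 read runs from 0.0253 to 5.57 reads, and around 3 reads from 0.619 to 8.77 reads. These intervals cover counting error only, since the reads carry no molecular identifiers.

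The threshold of 1 FPKM removed no short entry that had a read. Of the 1266 entries, 1197 were listed at 0 in all 4 libraries, and the 3 above 0 but under the threshold were long host-gene entries, *Mir17hg* with a mean of 0.256 FPKM, *Mir155hg* with 0.0438 FPKM and *Mir143hg* with 0.0233 FPKM. Just inside it lay *Mir719* with a mean of 1.53 FPKM, *Snord15b* with 2 FPKM and *Mir8108* with 2.55 FPKM, each above 0 in 1 library. For the short entries membership therefore meant any value above 0 in 1 library. In such bulk samples, fewer cells of a type and less RNA per cell cannot be told apart.

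The classes differed in how many of their entries were members. H/ACA snoRNAs were members in 23 of 36 entries (63.9%), C/D snoRNAs in 6 of 73 (8.22%) and microRNAs in 34 of 1151 (2.95%). Length ran with class. The H/ACA entries had a median of 120 bases, the microRNA entries 81 and the C/D entries 68. Of the entries of at most 60 bases 0.806% were members, of those above 60 and up to 80 bases 1.80%, above 80 and up to 100 bases 2.12%, above 100 and up to 120 bases 13.7%, and above 120 and up to 250 bases 25.6%. Within microRNAs alone, 14 of 160 entries above 100 and up to 120 bases were members, against 6 of 470 above 60 and up to 80 bases. Whether length itself set these shares was not tested.

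Among the short members, 134 of 252 values (53.2%) were listed at 0. In control 7984, 31 of the 63 entries were at 0 (49.2%), in control 3911 34 (54.0%), in *Rax* iCKO 7983 32 (50.8%) and in *Rax* iCKO 3914 37 (58.7%). The shares of both groups thus overlapped. Of the 63 entries, 32 were above 0 in 1 library, 13 in 2, 12 in 3 and 6 in all 4. The 6 were the microRNAs *Mir6236*, *Mir6240* and *Mir6340* and the H/ACA snoRNAs *Snora31*, *Snora43* and *Snora70*. All 6 C/D snoRNA members were at 0 in at least 2 libraries.

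**Figure D2:**
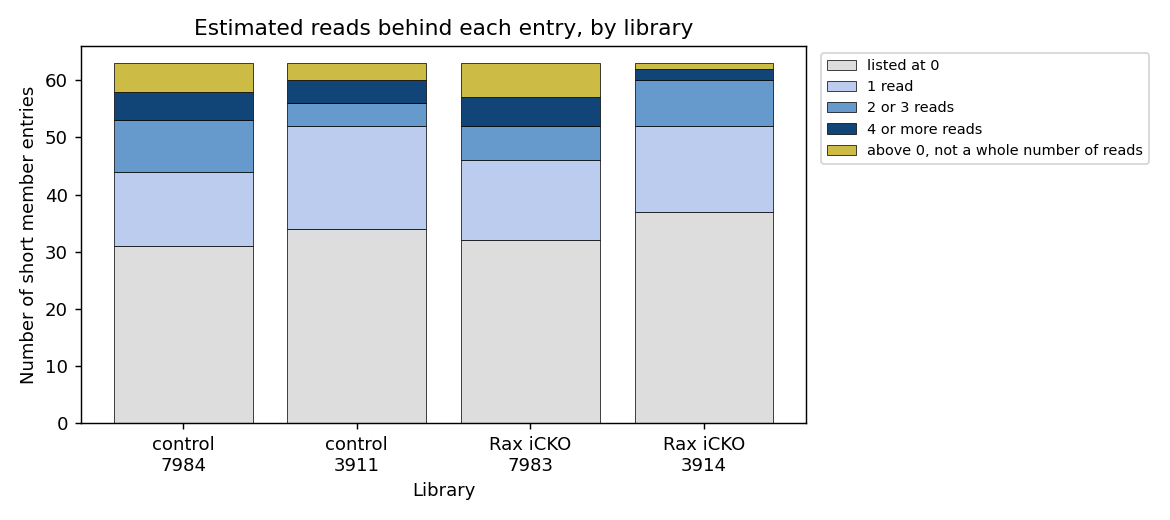
Number of the 63 short members in each library (bars), split by the estimated reads behind the value. Between 31 and 37 entries are at 0 in each library, and between 13 and 18 rest on 1 read.

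*Mir6236* had the highest mean of all members, 268 FPKM. It was at 587 FPKM in control 7984, 79.3 in control 3911, 367 in *Rax* iCKO 7983 and 39.5 in *Rax* iCKO 3914, which came to 41, 4, 19 and 2 reads. *Mir6240* was at 223, 119, 277 and 70.9 FPKM in the same order. Both were high in mice 7984 and 7983 and low in mice 3911 and 3914. *Mir6236* was also lower in the *Rax* iCKO mouse of each pair of neighbouring numbers, whereas *Mir6240* was higher in 7983 than in 7984 and lower in 3914 than in 3911. *Rn45s*, the entry of the 45S ribosomal RNA precursor (chosen after its values were seen), was at 1239, 315, 845 and 310 FPKM in the same order of libraries, with the same mice high and low. So was *Rmrp*, the RNA of the RNase MRP particle, at 42.0, 5.36, 18.4 and 2.67 FPKM, and *Rpph1*, the RNA of RNase P, at 30.1, 3.45, 12.7 and 0.858 FPKM. *Vaultrc5*, a vault RNA of the same list of short structured RNAs, had another order, at 1.63, 13.4, 5.87 and 4.47 FPKM. The part of ribosomal RNA in the values of *Mir6236* and *Mir6240* was not tested, and the sequence of *Rn45s* was not used here.

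Without *Mir6236* and *Mir6240*, the short members held 61.3 reads in control 7984, 40.5 in control 3911, 60.4 in *Rax* iCKO 7983 and 44.3 in *Rax* iCKO 3914. Those values lay closer together than the reads of the pair, which were 53.8, 8.97, 31 and 4.99 in the same order. *Mir6340*, the other microRNA above 0 in every library, had another order, at 80.6, 134, 21.7 and 133 FPKM. It was low in *Rax* iCKO 7983 only, with 1 read against 5 or 6 in the others.

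Of the other entries with the highest FPKM, *Mir5098* was at 135 FPKM in control 7984, 95.1 in control 3911, 365 in *Rax* iCKO 7983 and 0 in *Rax* iCKO 3914. *Mir7668* and *Mir7664* were above 0 in *Rax* iCKO 7983 alone, at 300.2 and 229 FPKM, each from 1 read in an entry of 59 and 63 bases. A place among the highest FPKM was thus reached by 1 read in the shortest entries. *Snora28*, in an intron of the translation factor gene *Eif5*, was at 106, 0, 143 and 20.9 FPKM. *Snora31*, in an intron of *Tpt1*, was at 80, 27.7, 80.9 and 55.3 FPKM, or 4, 1, 3 and 2 reads, and had the highest mean of the 3 H/ACA entries above 0 in all 4 libraries. *Snora43* was at 9.29, 25.6, 12.5 and 25.6 FPKM.

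The retinal microRNA loci were almost all at 0. Of 39 entries for let-7, miR-9, miR-29, miR-30, miR-96, miR-100, miR-124, miR-125b, miR-181, miR-182, miR-183, miR-204 and miR-211, 37 were at 0 in all 4 libraries. *Mirlet7a-1* was at 52.1 FPKM in *Rax* iCKO 3914 and *Mir124a-2* at 30.6 FPKM in control 3911, each from 1 read and at 0 in the other 3 libraries. *Mir7-1*, in an intron of *Hnrnpk*, was at 22.8 FPKM in control 7984 and at 0 elsewhere, although *Hnrnpk* itself was between 589 and 751 FPKM.

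The 3 host-gene members were measured in all 4 libraries. *Mir124a-1hg*, whose transcript holds the hairpin of miR-124, a microRNA of neurons, was at 15.7 FPKM in control 7984, 12.7 in control 3911, 23.7 in *Rax* iCKO 7983 and 20.1 in *Rax* iCKO 3914. *Mir99ahg*, the host of miR-99a and let-7c, was at 4.28, 5.33, 2.58 and 2.62 FPKM. *Mir22hg*, the host of miR-22, was at 5.27, 10.6, 8.86 and 11.7 FPKM. The hosts of miR-124 and of miR-99a had genotypes that did not overlap, the first higher and the second lower in *Rax* iCKO.

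Over all short members, mice of 1 group did not resemble each other more closely than mice of different groups did, but the classes differed in this. The median absolute difference in log2(FPKM + 1) was 3.14 between the controls and 2.72 between the *Rax* iCKO mice, and it was between 0.95 and 3.49 for the 4 pairs of a control and a *Rax* iCKO mouse. The smallest values were those of 3911 with 3914 (0.95) and 7984 with 7983 (1.84), pairs of unlike genotype but neighbouring mouse numbers. Entries at 0 in both mice lower this median. Pearson's r was only 0.10 for 3911 with 3914 and 0.18 for 7984 with 7983. It was 0.10 between the controls, 0.02 between the *Rax* iCKO mice, and -0.04 and 0.07 for the remaining pairs. In the 34 microRNAs alone the control pair differed least (0.53) and the *Rax* iCKO pair most (4.52). In the 23 H/ACA snoRNAs, by contrast, the *Rax* iCKO pair differed least (0.54) and the control pair most (4.15). These class medians also depend on how many entries were at 0 in 1 or both mice. In 4741 other genes of like mean level, from 7.42 to 33.6 FPKM, the median difference was 0.32 between the controls and 0.25 between the *Rax* iCKO mice. Those genes also differed least in the same pairs, at 0.23 and 0.19.

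**Figure D3:**
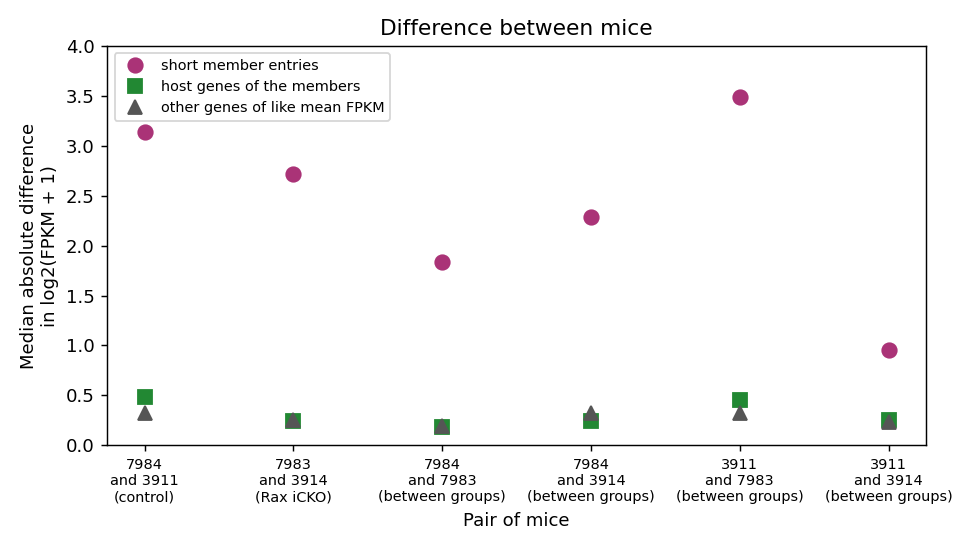
Median absolute difference in log2(FPKM + 1) for each pair of mice (x axis), for the 63 short members, the 45 host genes and 4741 other genes of like mean FPKM. The short members lie between 0.95 and 3.49, and the host genes between 0.18 and 0.48.

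Which entries were above 0 was also shared by few mice. Of the 47 short members above 0 in at least 1 control, 14 were above 0 in both (29.8%), and of the 44 above 0 in at least 1 *Rax* iCKO mouse, 13 were above 0 in both (29.5%). Between a control and a *Rax* iCKO mouse the share was between 27.7% and 37.0%. Among the genes of like level it was at least 99.9% for every pair. The 3 host-gene members were above 0 in every mouse, and their median difference was 0.29 between the controls and 0.22 between the *Rax* iCKO mice, near that of other genes.

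Hosts were found for 50 of the 63 short members, as genes on the same strand whose span holds the entry. Of these entries, 33 lay in introns, 12 in exons and 5 across the edge of an exon, and 47 had a host in the files, 45 different genes. *Kansl2*, a gene of chromatin regulation, held 3 members, *Snora34*, *Snora2b* and *Mir1291*, and *Mir1291* overlaps *Snora34*. Hosts of H/ACA members included the ribosomal protein gene *Rpl10* (*Snora70*), the translation factor genes *Eif5* (*Snora28*) and *Eif4a2* (*Snora81*), the chaperonin gene *Cct6a* (*Snora15*), the nucleolin gene *Ncl* (*Snora75*) and the chromatin remodeller gene *Srcap* (*Snora30*).

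Members lay in more highly expressed hosts than entries listed at 0. The median mean FPKM of the host was 51.7 for members (n = 47) and 5.97 for entries at 0 in all 4 libraries (n = 791). For microRNAs the medians were 37.7 and 4.79 FPKM, for H/ACA snoRNAs 98.8 and 12.8 FPKM, and for C/D snoRNAs 189 and 64.5 FPKM. Of the microRNA entries with a host at 100 FPKM or more, 4 of 34 (11.8%) were members, against 15 of 239 (6.28%) with a host from 10 to under 100 FPKM, 1 of 310 (0.323%) from 1 to under 10 FPKM and 1 of 154 (0.649%) under 1 FPKM. Of the H/ACA entries, 10 of 13 (76.9%) were members at 100 FPKM or more, 6 of 12 (50%) from 10 to under 100 FPKM and 4 of 7 (57.1%) from 1 to under 10 FPKM, so the share did not rise at each step. Of the C/D entries, 4 of 28 (14.3%) were members in hosts of 100 FPKM or more, 2 of 31 (6.45%) in hosts from 10 to under 100 FPKM and 0 of 9 below that. These are descriptions over entries, which share hosts and libraries, and were not tested.

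**Figure D4:**
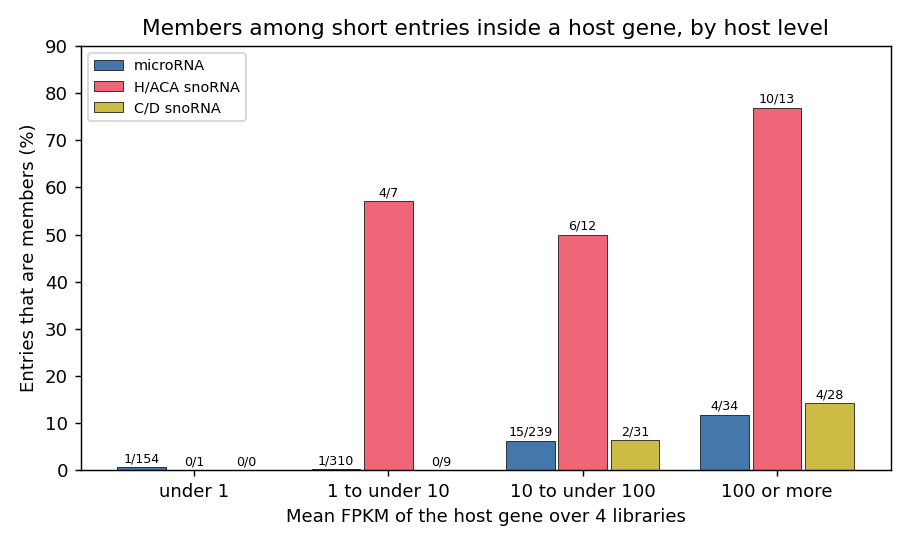
Share of short entries that are members (bars, %), by the mean FPKM of the host gene and by class, with members and entries counted above each bar. In hosts of 100 FPKM or more, 10 of 13 H/ACA entries are members, against 4 of 34 microRNAs and 4 of 28 C/D snoRNAs.

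Within the members, however, the level of an entry was little related to the level of its host. Over the 47 entries, Pearson's r between log2(FPKM + 1) of entry and host was -0.04 in control 7984, -0.02 in control 3911, -0.10 in *Rax* iCKO 7983 and 0.26 in *Rax* iCKO 3914. Within the 20 H/ACA entries it was -0.05, 0.31, 0.18 and 0.36, and within the 21 microRNAs -0.17, -0.38, -0.25 and 0.30. The points of a library share its depth, and the length of an entry sets the FPKM of its 1 or 2 reads. *Snora70* and its host illustrate the difference in precision. *Rpl10* was at 302, 343, 270 and 267 FPKM, whereas *Snora70* was at 12.1, 16.7, 32.6 and 33.3 FPKM, or 1, 1, 2 and 2 reads.

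The comparison of control with *Rax* iCKO mice was fitted with limma on the log2(FPKM + 1) scale, using all 12363 genes that reached a mean of 1 FPKM. One gene was higher in *Rax* iCKO at an adjusted p under 0.05 (0.00809% of the genes tested) and 2 were lower (0.0162%). The 66 members contributed the 1 higher gene, *Mir568*, and 1 of the 2 lower ones, *Mir6538*, the other being *Xist*. By the *Xist* values, given below, sex and genotype cannot be told apart in this comparison. Each of these entries was at 0 in 1 genotype and reached the mean of 1 FPKM only through the other, like the 19 members at 0 in both *Rax* iCKO mice and the 16 at 0 in both controls as a whole, so their values had to differ and the calls are given as a description that supports nothing. At an unadjusted p under 0.05 there were 8 members (12.1%), some of them through such zeros, and 354 of all genes (2.86%). These counts were 52 and 1938 with neighbouring mouse numbers as a block. The median standard error was 1.48 among the members and 0.27 among all genes tested, and the median log2 fold change was 0.00 in both. With 2 mice against 2, an exact permutation test of a single value cannot go below p = 0.33.

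*Mir568* was at 0 FPKM in both controls, 239 FPKM in *Rax* iCKO 7983 and 82.5 FPKM in *Rax* iCKO 3914. These values came to 0, 0, 3 and 1 reads in an entry of 83 bases. The log2 fold change was 7.15 (SE 0.49), with an adjusted p of 0.0244 (limma, Benjamini-Hochberg), and since both controls were at 0 its size depends on the pseudocount of 1. *Zbtb20*, the transcription factor gene whose exon holds the hairpin, was at 30.3 and 35.1 FPKM in the controls and at 39.2 and 63.4 in the *Rax* iCKO mice, a log2 fold change of 0.60 (SE 0.28, adjusted p = 1 in limma). Reads of the hairpin cannot be told apart from reads of that exon.

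*Mir6538* was at 21.3 and 29.6 FPKM in the controls and at 0 in both *Rax* iCKO mice. That was 1 read in each control and none in the others. The log2 fold change was -4.71 (SE 0.28), with an adjusted p of 0.0167 (limma), and it was -7.98 with a pseudocount of 0.1 and -1.82 with 10. *Rnf144a*, its host, was at 7.76 and 8.65 FPKM in the controls and 10.2 and 10.9 FPKM in the *Rax* iCKO mice, in the opposite direction, without passing the test (adjusted p = 1 in limma). In simulated data the fit also called some unchanged genes, in excess of the threshold under some of the spreads drawn. Neither call held with a pseudocount of 10, with no filter, or with a mean FPKM of at least 5, where the adjusted p was between 0.058 and 0.781 for *Mir568* and between 0.058 and 0.29 for *Mir6538*. With 1 mouse left out, the log2 fold change ran from 6.38 to 7.91 for *Mir568* and from -4.93 to -4.48 for *Mir6538*. Leaving out a mouse cannot undo a genotype at 0, and it leaves a lone mouse whose spread is taken from the others.

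The members whose groups did not overlap are given as a description, since the 32 entries above 0 in 1 library could not be among them. Both *Rax* iCKO libraries lay above both controls in 5 members (7.58%), against 15.4% of all genes tested, and below both controls in 4 members (6.06%), against 14.1%. Above lay *Mir568*, *Mir8097*, *Snora81*, *Snora70* and *Mir124a-1hg*, and below lay *Mir703*, *Mir6538*, *Snora78* and *Mir99ahg*. *Mir8097* was at 37.9 and 0 FPKM in the controls and 94.0 and 141 FPKM in the *Rax* iCKO mice. It lies in an exon of *Rnf19a*, which was at 12.7, 12.8, 16.7 and 15.0 FPKM.

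**Figure D5:**
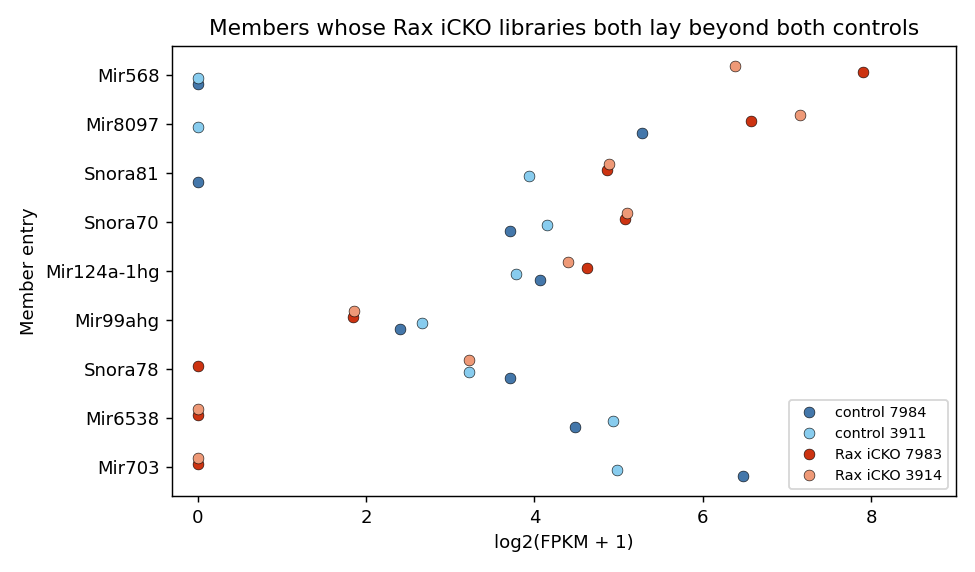
log2(FPKM + 1) in each of the 4 libraries (points) for the 9 members in which no control value fell within or past the Rax iCKO values. In Snora78, control 3911 and Rax iCKO 3914 nearly coincide, at 8.34 and 8.31 FPKM.

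*Snora81* was at 0 and 14.3 FPKM in the controls and 28.0 and 28.5 FPKM in the *Rax* iCKO mice, or 0, 2, 4 and 4 reads, with a log2 fold change of 2.90 (SE 1.15, adjusted p = 1 in limma). It was 0.93 without control 7984 and 4.87 without control 3911, where it passed the test (adjusted p = 0.00285 in limma). Its host *Eif4a2* had a log2 fold change of -0.02 (SE 0.21). *Snora70* had a log2 fold change of 1.16 (SE 0.24, adjusted p = 1 in limma, and 0.00848 with neighbouring mouse numbers as a block), while its host *Rpl10* had -0.26 (SE 0.24). *Snora78* was at 12.1 and 8.34 FPKM in the controls and at 0 and 8.31 FPKM in the *Rax* iCKO mice. Control 3911 and *Rax* iCKO 3914 each held 1 read of it, so the order of these libraries came from their depths.

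*Mir703* was at 88.2 and 30.6 FPKM in the controls, or 4 reads and 1 read, and at 0 in both *Rax* iCKO mice. Its log2 fold change was -5.73 (SE 0.49), and its adjusted p was 0.0606 (limma), or 3.41e-07 with neighbouring mouse numbers as a block. With both *Rax* iCKO mice at 0, the fold change was -9.02 with a pseudocount of 0.1 and -2.66 with 10. Of the 80 windows of 30 bases in its hairpin, 44 (55%) also occurred in transcripts of 6 genes elsewhere, the translation elongation factor gene *Eef1a1* among them, so its reads may be shared with copies. Of the 54 short members with a sequence, 14 had such a window elsewhere, including *Snora65* with 73.3% of its windows, *Snora81* with 63.1% and *Snora70* with 33.3%. *Mir568* and *Mir6538* had none, and 9 short members, *Mir6236* among them, were not searched.

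The hosts showed no called difference. Of 45 host genes, 44 were tested, none passed an adjusted p of 0.05 in limma, and none had an unadjusted p under 0.05. Their median log2 fold change was -0.02 and the largest was 0.62 in size (*Srcap*, host of *Snora30*). The 2 host-gene members with genotypes that did not overlap, *Mir124a-1hg* and *Mir99ahg*, had log2 fold changes of 0.59 (SE 0.23) and -0.68 (SE 0.27), both with an adjusted p of 1 in limma. *Mir99ahg* was thus lower in *Rax* iCKO by more than the difference within each group, without passing the test.

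Transcripts of the genes that make and use microRNAs were listed above 0 in most cases. Of 25 genes of microRNA processing in the files, 23 were tested and none passed the adjusted p, and none had an unadjusted p under 0.05 in limma. In 7 of them (30.4%) both *Rax* iCKO libraries lay above both controls and in 2 (8.70%) below, against 15.4% and 14.1% of all genes tested. *Dicer1*, the cytoplasmic RNase, was at 2.63 and 2.09 FPKM in the controls and 3.26 and 3.69 FPKM in the *Rax* iCKO mice, a log2 fold change of 0.42 (SE 0.27). *Drosha* was between 16.0 and 20.3 FPKM and *Dgcr8* between 12 and 14.9 FPKM, with overlapping groups. *Hnrnpa1*, which binds some hairpins, was at 35.2 and 52.3 FPKM in the controls and 30.8 and 23 FPKM in the *Rax* iCKO mice. The RNA helicase gene *Ddx17* was at 42.5, 31.6, 45.2 and 52.5 FPKM and *Tnrc6a*, a partner of Argonaute, at 6.7, 4.34, 7.17 and 8.38 FPKM. *Tarbp2* (log2 fold change 0.27), *Ddx5* (0.24) and *Zcchc6* (0.44) also lay above both controls, and *Prkra* (-0.23) lay below. *Lin28b*, a blocker of let-7 processing, was at 0 in all 4 libraries.

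The genes of the protein partners of the snoRNAs did not pass the test either. Of 12 genes of the C/D particle tested none was called, 0 lay above and 2 (16.7%) below both controls, against 15.4% and 14.1% of all genes tested, and the median log2 fold change was -0.01. *Fbl* was at 18.4 and 25.2 FPKM in the controls and 24.3 and 25.1 FPKM in the *Rax* iCKO mice. Of 9 genes of the H/ACA particle tested none was called, 1 lay above (11.1%) and 2 below (22.2%), and *Dkc1* was at 12.1, 14.9, 13.4 and 14.7 FPKM. The counts at an unadjusted p under 0.05 in limma were 0 for both particles. *Nolc1*, a nucleolar chaperone, was at 10.5 and 14.7 FPKM in the controls and 15.0 and 15.2 FPKM in the *Rax* iCKO mice, and *Wrap53*, which takes such RNAs to Cajal bodies, at 9.17, 9.27, 7.93 and 7.03 FPKM. *Coil*, the gene of the Cajal body protein coilin, was at 7.05, 6.94, 6.86 and 5.71 FPKM. In the C/D particle, *Nhp2l1* was at 145 and 153 FPKM in the controls and 109 and 139 FPKM in the *Rax* iCKO mice, and *Ruvbl1* at 51.1, 65.8, 45.1 and 50.2 FPKM.

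Among 16 tested long noncoding host genes of snoRNAs none was called and 1 had an unadjusted p under 0.05 in limma, 4 (25%) lay above both controls and 2 (12.5%) below (15.4% and 14.1% of all genes tested), and the median log2 fold change was 0.22. *Gas5*, which holds many C/D snoRNAs, was at 25.2 and 18.1 FPKM in the controls and 28.7 and 37.4 FPKM in the *Rax* iCKO mice, a log2 fold change of 0.60 (SE 0.26, adjusted p = 1 in limma). *Snhg18* was at 29.6 and 28.0 FPKM in the controls and 17.7 and 19.9 FPKM in the *Rax* iCKO mice, with -0.59 (SE 0.20, adjusted p = 1 in limma). *Snhg3* (log2 fold change 0.15), *Snhg4* (0.42) and *Snhg17* (0.48) also lay above both controls, and *Snhg8* (-0.39) lay below. *Snhg9*, the host of *Snora78*, was at 7.12, 0, 0 and 14.6 FPKM, and so varied as much within as between the groups.

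Values of the whole libraries stood beside these results. *Rax* was at 189 and 181 FPKM in the controls and 111 and 98.4 FPKM in the *Rax* iCKO mice (log2 fold change -0.82, SE 0.21, adjusted p = 1 in limma), so both *Rax* iCKO libraries were lower, without passing the test. Of 10 Müller glial markers all were tested, and their summed FPKM was 10854 and 7909 in the controls and 6934 and 6800 in the *Rax* iCKO mice, with 3 of 10 below both controls. Rod markers summed to 1421 and 1377 FPKM in the controls and 956 and 836 FPKM in the *Rax* iCKO mice, with 5 of 6 below both controls (14.1% of all genes tested). Bipolar markers summed to 3475, 8237, 4643 and 6836 FPKM, with 3 of 5 above both controls (15.4% of all genes tested). In control 3911 and *Rax* iCKO 3914 the bipolar sum exceeded the Müller glial sum, with *Pcp2* at 6515 and 4846 FPKM. The libraries thus also held transcripts of bipolar cells and rods. *Xist*, the RNA of the silenced X chromosome, was at 24.5 and 21.2 FPKM in the controls. It was at 0.0119 and 0.00605 FPKM in the *Rax* iCKO mice. These are levels of female controls and male *Rax* iCKO mice, and the paper used mice of either sex. Sex and genotype therefore cannot be told apart in any comparison here, including that of *Snora70*, which lies on the X chromosome. Microglial markers summed to between 3.08 and 28.1 FPKM and endothelial markers to at most 2.07 FPKM. The part of these differences in the member values was not tested.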

How the data were processed

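RNA-seq libraries of sorted mTFP-positive retinal cells from 4 mice were analysed. FPKM were computed by the authors with Cufflinks after mapping to mm10, and 1 FPKM table was deposited for each mouse. The submitters' processing notes name TopHat2 2.1.1, Bowtie2 2.2.8, SAMtools 0.1.18 and Cuffdiff 2.2.1. The RNA isolation differs between labels (a spin column) and methods (TRIzol LS). The gene annotation and any use of strand are not given in the sources used here, so overlapping and antisense genes share an uncertain split of reads.

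Entries were placed with RefSeq (GRCm38.p6, 1262 of 1266 symbols) and GENCODE M21. The genotypes were fitted in limma 3.58.1 (R 4.3.3, eBayes with a trend) on log2(FPKM + 1), with Benjamini-Hochberg adjustment over the 12363 genes that reached a mean of 1 FPKM. In simulated data with 2 mice a group the fit recovered most changed genes, but under some simulated spreads called more unchanged genes than the threshold allows. Reads were estimated from the depth and a Cufflinks-like effective length (fragments of mean 200 and SD 80 bases), and no count test was run, since most member values were at 0 or rested on 1 to 4 reads. Depth came from single-exon genes of at least 600 bases.

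Members and gene lists were chosen with earlier results of these data known. Named members were those called, the 10 highest in mean FPKM, the 5 largest rises and falls with groups that did not overlap, the 6 highest per class above 0 in all libraries within a host, the 3 on each side of the threshold, and their hosts. Up to 8 genes of a list were named where the groups did not overlap. Other genes were named with their values already seen. The alternatives were pseudocounts of 0.1 and 10, no low-value filter or one at 5 FPKM, medians made equal, a robust prior, no variance trend, quantile normalization, neighbouring mouse numbers as a block, and each mouse left out.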

Additional observations from a re-analysis of the deposited data

How the results depend on the processing

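The 1 member called higher and the 1 called lower fell to 0 and 0 with a pseudocount of 10, with no filter and with a filter at 5 FPKM. Over all genes, 0 were called with the pseudocount of 10 and with the filter at 5 FPKM, but 31 of 24322 with no filter. With a pseudocount of 0.1, equal medians or a robust prior, 2 were called lower, *Mir703* being the added one. Over all 12363 genes, 4, 6 and 5 were called in these fits, in that order. With neighbouring mouse numbers as a block (7984 with 7983, 3911 with 3914), 2 were called higher and 3 lower, *Mir703*, *Mir6236* (lower, adjusted p = 0.0249 in limma) and *Snora70* (higher, adjusted p = 0.00848) being added, and the count over all genes went from 3 to 71. The labels give the mice no shared replicate numbers, so this pairing is only a hint from the data. When each mouse was left out in turn, the lone mouse of a group was assumed to vary like the others, so directions and sizes are given. Without *Rax* iCKO replicate 3914, *Mir5098*, *Mir6236* and *Mir6240* changed direction, without control 7984 *Mir6236* and *Mir6240*, without *Rax* iCKO 7983 *Mir6340*, and without control 3911 *Snora28* and *Snora31*. Over the mice left out, the log2 fold change ran from -6.84 to 1.68 for *Mir5098*, from -2.42 to 0.76 for *Mir6236*, from -1.19 to 0.77 for *Mir6240*, from -2.21 to 0.36 for *Mir6340*, from -0.93 to 5.81 for *Snora28* and from -0.25 to 1.24 for *Snora31*. *Snora81* kept its direction, from 0.93 to 4.87. The share of values at 0 was 50.8% over all 66 members and 97.7% over every short entry of the symbol rule (added after seeing the data). The median difference between mice of 1 group was 2.72 for the members, 1.73 for all entries above 0 and 2.96 without host-gene and longer entries. The median reads per value were 1.69 with fragments from 1 base, 0.393 with fragments of mean 250 bases 0.999 with the shortest fragment and 2 with the step taken from entries of like length. The correlation with the host averaged 0.02 over all entries with a host and was between 0.01 and 0.05 with ranks, hosts on any strand or introns alone, but averaged -0.13 in microRNAs and 0.20 in H/ACA snoRNAs. The cause of these changes was not tested. Most values above 0 in the short entries rest on 1 to 4 reads. Whether depth, read length or the priming on poly(A) tails set these numbers was not tested.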

Other observations

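Other short genes were sparse too. Outside the symbol rule, 4 genes of at most 250 bases had a mean of at least 1 FPKM. *Bc1*, a short RNA of neuronal dendrites, was at 0 and 10.8 FPKM in the controls and 20.6 and 0 FPKM in the *Rax* iCKO mice. *Rnu12*, a small nuclear RNA of the minor spliceosome, was at 0 and 19.6 FPKM in the controls and 9.58 and 9.76 FPKM in the *Rax* iCKO mice. *Gm38671* was at 47.1, 0, 47.6 and 32.4 FPKM and *Rprl3* at 0, 6.27, 0 and 0 FPKM in the order control 7984, control 3911, *Rax* iCKO 7983 and *Rax* iCKO 3914. Each of the 4 was at 0 in at least 1 library, and none passed the test (adjusted p = 1 in limma).

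Of 9 Scarna entries, which guide the modification of spliceosomal RNAs in Cajal bodies, 8 were at 0 in all 4 libraries. *Scarna13* was at 1.95 and 4.02 FPKM in the controls and 1.32 and 1.34 FPKM in the *Rax* iCKO mice. Of 7 nuclear-retained RNAs tested, 3 (42.9%) lay above both controls and 1 (14.3%) below, against 15.4% and 14.1% of all genes tested. The 3 were *Neat1*, *Malat1* and *Meg3*, and the 1 was *Xist*. *Malat1* was at 466 and 526 FPKM in the controls and 674 and 730 FPKM in the *Rax* iCKO mice, and *Meg3* at 22.3 and 22.2 against 36.7 and 37.8 FPKM, with adjusted p = 1 for both in limma.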
